A study of Mus musculus with 4 samples.

Results

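The globin genes encode the protein chains of haemoglobin, the oxygen carrier of red cells. The set described here holds 7 mouse genes, taken by symbol from a table of 28987 genes: the alpha-like Hba-a1, Hba-a2 and Hba-x and the beta-like Hbb-bs, Hbb-bt, Hbb-bh1 and Hbb-y. All 7 were present in the table, and 4 of them (the adult genes) had enough transcript to be tested. RNA sequencing was done on bone marrow cells of C57BL/6 mice that were enriched on magnetic beads for c-Kit (CD117), a receptor of haematopoietic stem and progenitor cells. The libraries labelled Hif1a-null carried MllPTD/WT, Runx1Flox/Flox, Hif-1alphaFlox/Flox and Mx1-Cre (2 libraries). The libraries called Hif1a-intact here carried MllPTD/WT, Runx1Flox/Flox and Mx1-Cre without a floxed Hif1a (2 libraries).

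Both groups therefore shared the partial tandem duplication of Mll (Kmt2a) on 1 allele and the floxed Runx1, Runx1-null by the labels, and no library had an unmodified Mll or Runx1. Mx1-Cre is driven by an interferon-inducible promoter and recombines in many haematopoietic and other cells, so deletion was not limited to the red cell lineage. The labels give no ages and do not say whether replicate libraries stem from different mice, so the p-values reflect just the variation among 4 libraries, which could be technical. Values are in TPM, a transcript abundance scaled by transcript length and by the library's sum, which keeps no read counts. The depth of each library is thus unknown, and the 4 columns summed to between 955562 and 963135 TPM. By its genotypes the comparison asks what loss of Hif1a, which encodes the HIF-1 subunit that oxygen controls, does to transcripts in this Mll and Runx1 mutant marrow.

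Haemoglobin is assembled from pairs of alpha-like and beta-like chains, each holding a haem group, and red cell precursors keep the supply of both chains close to balanced. In the mouse the alpha-like genes lie together on chromosome 11 and the beta-like genes on chromosome 7, each cluster under distant enhancers. Hba-x, Hbb-y and Hbb-bh1 are used by the primitive red cells of the yolk sac, while Hba-a1, Hba-a2, Hbb-bs and Hbb-bt serve definitive red cells of the fetal liver and adult marrow. Globin messenger RNA builds up late in the erythroid lineage, as c-Kit is lost from the cell surface.

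The adult genes come as near-identical copies, and their sequences are shown first because they limit what each value can mean. In GENCODE vM21 transcripts (GRCm38), the coding parts of Hba-a1 and Hba-a2, 426 bases each without the stop codon, differed at 1 base. It lies in exon 3, C381T counted from the first base of the start codon, with the Hba-a1 base first. The coding parts of Hbb-bs and Hbb-bt, 441 bases each, also differed at 1 base of exon 3, C417T with the Hbb-bs base first. Both pairs were 99.8% identical. The stretches below hold these differences, with the differing base in capitals (coding bases 351 to 410 of the alpha pair and 382 to 441 of the beta pair). In the order printed they lie, in GRCm38, at chr11:32284313-32284372 and chr11:32297130-32297189 on the plus strand, and at chr7:103826668-103826727 and chr7:103812659-103812718 on the minus strand.
Hba-a1: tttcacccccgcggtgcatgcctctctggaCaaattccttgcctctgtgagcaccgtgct
Hba-a2: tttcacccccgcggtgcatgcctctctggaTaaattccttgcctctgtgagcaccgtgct
Hbb-bs: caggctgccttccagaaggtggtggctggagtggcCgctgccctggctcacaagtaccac
Hbb-bt: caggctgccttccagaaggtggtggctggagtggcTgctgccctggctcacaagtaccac

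The deposited values come from kallisto, which assigns reads by short words of sequence; 31 bases, its usual setting, was taken here. Hba-a2 had 47 of 524 words (9.0%) that occurred in no other annotated gene, and 477 of its words were shared with Hba-a1. Hba-a1 had 191 of 669 such words, and 161 of them started before the start codon, since its annotated transcript begins further upstream than that of Hba-a2. Annotations differ here. The GENCODE gene starts at 32283511, and the RefSeq start used for the promoters below is 32283672. The upstream words of Hba-a1 and its length thus rest on the GENCODE start, and 30 of its own words started in the coding part. Hbb-bs had 198 of 598 and Hbb-bt 273 of 673 words of their own. All words of Hba-x, Hbb-bh1 and Hbb-y occurred in no other gene. Values of single adult copies are therefore estimates of how shared reads divide. A sum over a pair depends on that division only through the lengths of the copies, 699 and 554 bases for Hba-a1 and Hba-a2 and 628 and 703 bases for Hbb-bs and Hbb-bt, by which TPM divides the reads.

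**Figure D1:**
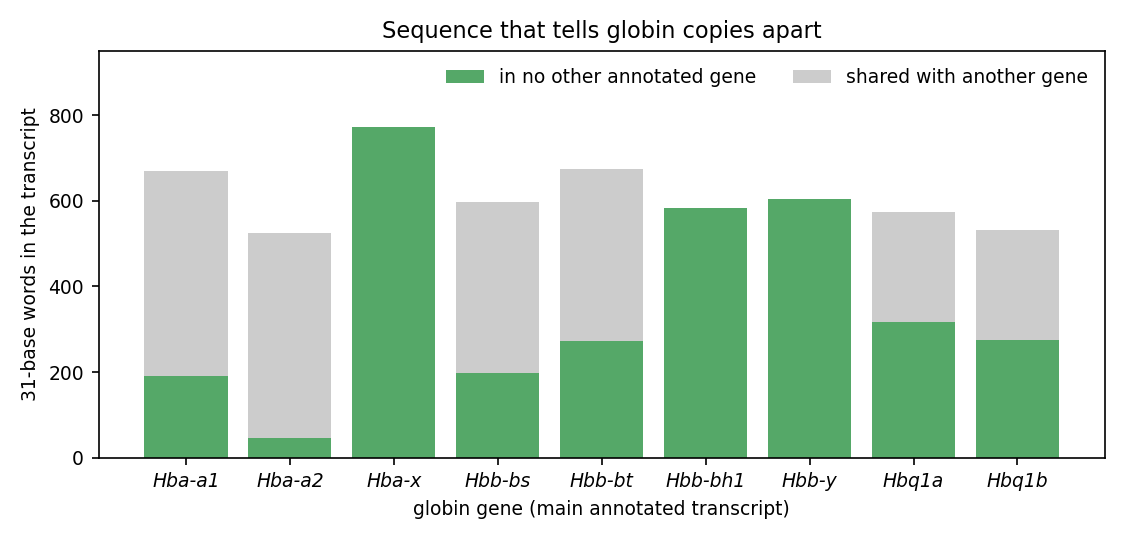
Number of 31-base words in the main annotated transcript of each globin gene, split into words found in no other annotated gene (green) and words shared with another gene (grey). Hba-a2 keeps 47 words of its own, while all 771, 583 and 603 words of Hba-x, Hbb-bh1 and Hbb-y are their own.

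All 4 adult globin genes were higher in the Hif1a-null libraries, by 22.5-fold to 94.3-fold as ratios of group mean TPM. Of the 11909 genes tested, 5.25% were called higher by the same rule, a limma adjusted p under 0.05. The test used log2(TPM + 1) of genes that reached 1 TPM in 2 or more libraries, and its log2 fold changes, Hif1a-null minus Hif1a-intact, are on that scale. All 4 adult genes had groups that did not overlap, with the Hif1a-null pair higher, as had 22.7% of the genes tested, while 32.3% had non-overlapping groups with the Hif1a-null pair lower. The 3 embryonic genes fell below the filter and were not tested. In these mixed bulk samples, fewer cells of a type and less RNA per cell cannot be told apart.

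Hba-a2 (ENSMUSG00000069917, chromosome 11, 32296489 to 32297298, plus strand), an adult alpha chain gene, read 1004 and 1070 TPM in Hif1a-null libraries, against 16.6 and 5.43 TPM in the Hif1a-intact libraries. The Hif1a-intact pair was widely spread, with replicate 2 the lower, and the lowest Hif1a-null value was still 60.6 times the highest Hif1a-intact value. The log2 fold change came to 6.61 ± 0.52 (standard error; limma, adjusted p = 0.00973), rank 2 among the genes tested by size of increase. Hba-a1 (ENSMUSG00000069919, chromosome 11, 32283511 to 32284465, plus strand), the other adult alpha gene, read 263 and 214 TPM in Hif1a-null libraries, against 4.43 and 8.06 TPM in the Hif1a-intact libraries. Here Hif1a-intact replicate 2 was the higher of its pair, the reverse of Hba-a2. The log2 fold change came to 5.09 ± 0.30 (standard error; limma, adjusted p = 0.00655).

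Since the alpha copies share most of their words, their sum was tested too. Hba-a1 and Hba-a2 together read 1268 and 1284 TPM in Hif1a-null libraries, against 21.0 and 13.5 TPM in the Hif1a-intact libraries. Tested as 1 feature, the sum had a log2 fold change of 6.16 ± 0.24 (standard error; limma, adjusted p = 0.00385), a smaller standard error than either copy. The share of Hba-a2 in the pair was 79.2% and 83.4% in the Hif1a-null libraries, against 78.9% and 40.3% in the Hif1a-intact libraries. The low share stood in 1 library, Hif1a-intact replicate 2, where the pair summed to 13.5 TPM. The groups overlapped for neither copy nor their sum, but this share rests on the estimate over few words.

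Hbb-bs (ENSMUSG00000052305, chromosome 7, 103826534 to 103828096, minus strand), an adult beta chain gene, was the most abundant globin in every library. It read 5190 and 5604 TPM in Hif1a-null libraries, against 93.8 and 64.6 TPM in the Hif1a-intact libraries. By level it stood at rank 24 and 21 of all genes in the table in the Hif1a-null libraries, against rank 1253 and 1887 in the Hif1a-intact libraries. The log2 fold change came to 6.10 ± 0.22 (standard error; limma, adjusted p = 0.00349). Hbb-bs thus differed far beyond the spread within either pair, and made up 78.5% and 79.6% of the TPM of the 7 globins in the Hif1a-null libraries, against 76.4% and 75.3% in the Hif1a-intact libraries.

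Hbb-bt (ENSMUSG00000073940, chromosome 7, 103812524 to 103813996, minus strand), the other adult beta gene, read 156 and 154 TPM in Hif1a-null libraries, against 6.03 and 7.73 TPM in the Hif1a-intact libraries. The log2 fold change came to 4.32 ± 0.16 (standard error; limma, adjusted p = 0.00349), the smallest of the 4 adult genes. The share of Hbb-bt in the beta pair was 2.92% and 2.67% in the Hif1a-null libraries, against 6.04% and 10.7% in the Hif1a-intact libraries. These shares did not overlap between groups, and the difference between the copies was not tested. Hbb-bs and Hbb-bt summed to 5346 and 5758 TPM in the Hif1a-null libraries, against 99.9 and 72.3 TPM in the Hif1a-intact libraries, with a log2 fold change of 6.01 ± 0.20 (standard error; limma, adjusted p = 0.00362).

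**Figure D2:**
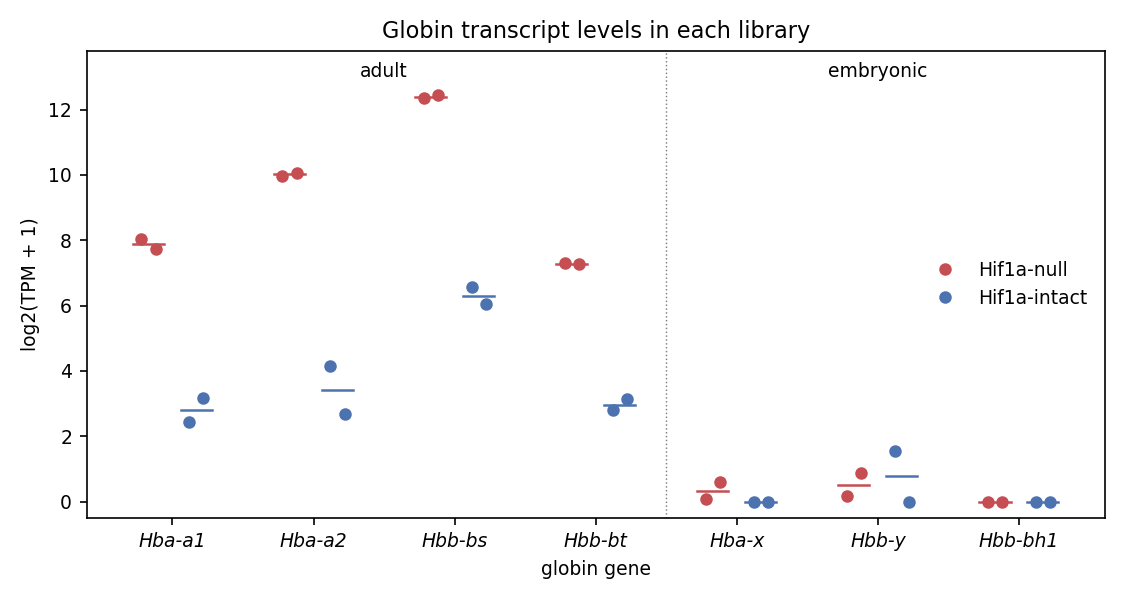
Level of each globin gene as log2(TPM + 1) in the 2 Hif1a-null (red, left) and 2 Hif1a-intact (blue, right) libraries; points are libraries and lines are group means. The adult genes separate the groups, and the embryonic genes lie near 0 in all 4 libraries.

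The calls of the adult genes depended on which libraries were present. Without Hif1a-null replicate 2, 0 of the 4 passed (log2 fold changes of 5.24 for Hba-a1, 6.56 for Hba-a2, 6.04 for Hbb-bs and 4.33 for Hbb-bt). Without Hif1a-null replicate 1, Hbb-bs and Hbb-bt passed, while Hba-a1 (4.94) and Hba-a2 (6.66) did not. In both cases the spread came from the Hif1a-intact pair alone. Without a Hif1a-intact library all 4 passed, but the size for Hba-a2 moved, to 7.34 without Hif1a-intact replicate 1 and to 5.88 without Hif1a-intact replicate 2.

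**Figure D3:**
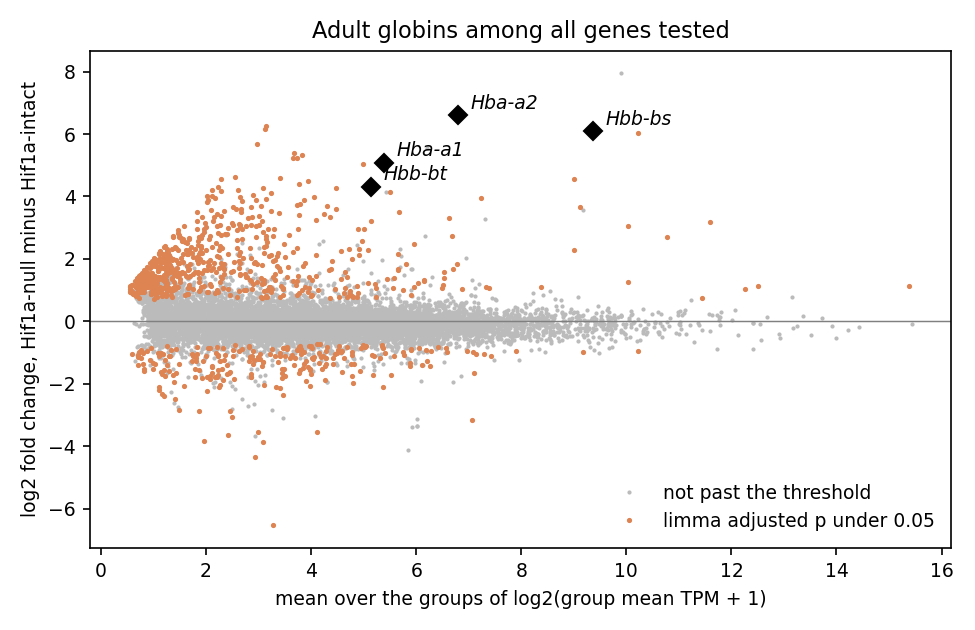
Log2 fold change (Hif1a-null minus Hif1a-intact) against the mean over both groups of log2(group mean TPM + 1) for all 11909 genes tested; orange points had a limma adjusted p under 0.05 and black diamonds are the 4 adult globins. The globins lie at log2 fold changes of 4.32 to 6.61, near the upper edge of the genes at their level.

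The alpha-like and beta-like totals moved together. Alpha-like genes summed to 1268 and 1284 TPM in the Hif1a-null libraries, against 21.0 and 13.5 TPM in the Hif1a-intact libraries, a 74.0-fold ratio of means. Beta-like genes summed to 5346 and 5759 TPM in the Hif1a-null libraries, against 102 and 72.3 TPM in the Hif1a-intact libraries, a 63.8-fold ratio of means. The groups did not overlap for either total.

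The ratio of alpha-like to beta-like TPM was 0.237 and 0.223 in the Hif1a-null libraries, against 0.206 and 0.186 in the Hif1a-intact libraries. It was below 1 in every library, and its values differed little beside the change in the totals. The groups did not overlap for this ratio, with the Hif1a-null pair higher. The means were 0.230 ± 0.0100 and 0.196 ± 0.0140 in the Hif1a-null and Hif1a-intact libraries (SD, n = 2 each). No p is given for these sums and ratios, and 2 against 2 allows no exact two-sided p under 0.333. Together the 7 globins took 0.688% and 0.731% of all TPM in the Hif1a-null libraries, against 0.0128% and 0.00898% in the Hif1a-intact libraries.

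**Figure D4:**
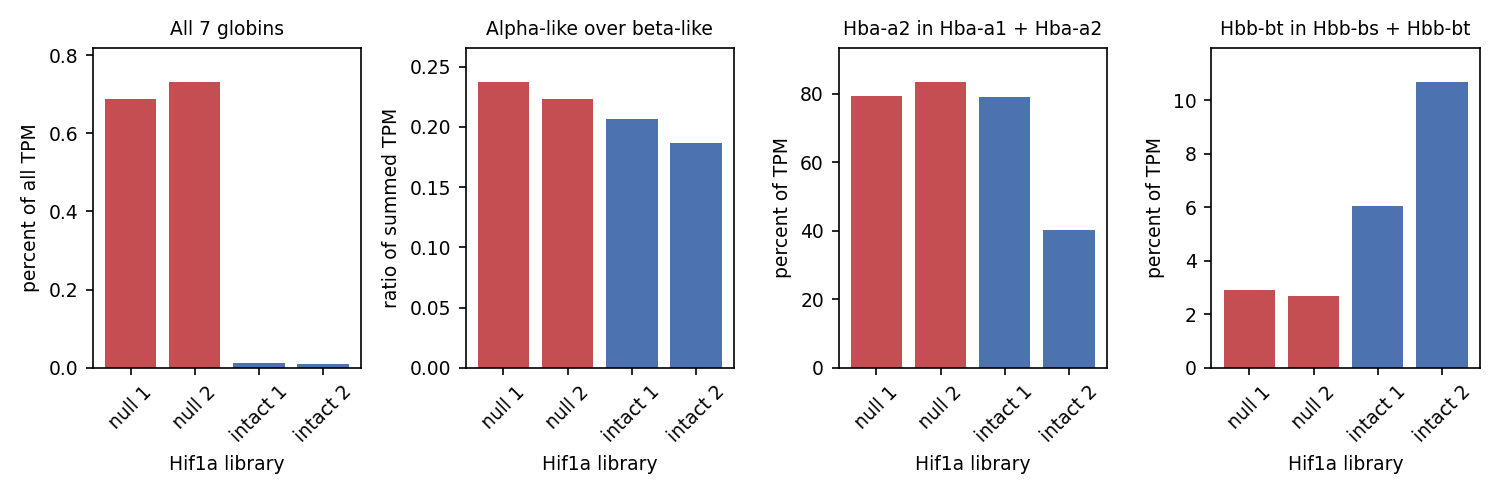
Per library, from left to right: percent of all TPM in the 7 globins, ratio of summed alpha-like to summed beta-like TPM, percent of Hba-a2 in the alpha pair and percent of Hbb-bt in the beta pair (red Hif1a-null, blue Hif1a-intact). The globin share differs between groups, while the alpha to beta ratio stays between 0.186 and 0.237, also without overlap between groups.

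Embryonic globins were at or near 0 in all 4 libraries. Hbb-bh1 (ENSMUSG00000052217, chromosome 7, 103841637 to 103843164, minus strand), an embryonic beta-like gene, was listed at 0 in all 4. Hba-x (ENSMUSG00000055609, chromosome 11, 32276400 to 32278116, plus strand), the embryonic alpha-like zeta chain gene, read 0.0482 and 0.503 TPM in Hif1a-null libraries and was at a listed 0 in both Hif1a-intact libraries. Hbb-y (ENSMUSG00000052187, chromosome 7, 103851749 to 103853216, minus strand), an embryonic beta-like gene, read 0.126 and 0.827 TPM in Hif1a-null libraries, against 1.94 TPM and a listed 0 in the Hif1a-intact libraries. Its groups overlapped, and its highest value stood in Hif1a-intact replicate 1.

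The embryonic genes summed to 0.174 and 1.33 TPM in the Hif1a-null libraries, against 1.94 TPM and 0 in the Hif1a-intact libraries, so these sums overlapped while the adult sums did not. Adult genes summed to 6614 and 7042 TPM in the Hif1a-null libraries, against 121 and 85.8 TPM in the Hif1a-intact libraries. Embryonic genes thus made up 0.00263% and 0.0189% of globin TPM in the Hif1a-null libraries, against 1.58% and 0% in the Hif1a-intact libraries. An exact 0 in TPM can be a failed estimate, and with unknown depth no limit can be set on it. The higher globin level was measured in the adult genes, and no embryonic gene exceeded 1.94 TPM in any library.

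Promoters of the adult genes are shown because the 4 genes moved together. The 150 bases before the RefSeq start site (GRCm38.p6) were searched on both strands for 6 motifs; 6 of the 7 members had an entry. One motif was CCAAT, a common promoter box near start sites. CCNCNCCC is the element type that the erythroid factor KLF1 binds. GATAA is the core motif of the erythroid GATA factors. ATAAA resembles the box that places the start of transcription. ACGTG is a core motif of HIF, the hypoxia-inducible factors. GCGTG is the other form of that HIF core. Matches on either strand are in capitals, those of the opposite strand in reverse complement, and positions count back from the base before the start, -1. Hba-a2 is chr11:32296342-32296491 on the plus strand, Hbb-bs chr7:103827929-103828078 and Hbb-bt chr7:103813924-103814073, both on the minus strand. The window of Hba-a1 held the same sequence as that of Hba-a2, with no mismatch, shifted by the place of its start.
Hba-a2: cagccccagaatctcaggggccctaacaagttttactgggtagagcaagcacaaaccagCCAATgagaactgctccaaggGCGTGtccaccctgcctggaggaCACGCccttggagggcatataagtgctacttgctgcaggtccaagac
Hbb-bs: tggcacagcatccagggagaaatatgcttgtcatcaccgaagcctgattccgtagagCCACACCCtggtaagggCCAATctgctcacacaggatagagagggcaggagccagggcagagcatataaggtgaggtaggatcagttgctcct
Hbb-bt: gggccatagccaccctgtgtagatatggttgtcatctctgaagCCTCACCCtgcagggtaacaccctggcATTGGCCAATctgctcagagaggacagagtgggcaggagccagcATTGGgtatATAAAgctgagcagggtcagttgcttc

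All 4 adult windows held CCAAT, at -91 to -87 in Hba-a2, -88 to -84 in Hba-a1, -76 to -72 in Hbb-bs and -75 to -71 in Hbb-bt, which had 2 more on the opposite strand. CCAAT was present in 24.5% of all 32851 windows of that length. CCNCNCCC was found in the beta genes, at -93 to -86 in Hbb-bs and -107 to -100 in Hbb-bt, and not in the alpha genes; 38.1% of all windows held it. GCGTG was found in the alpha genes, on both strands (at -70 to -66 and, on the opposite strand, -47 to -43 in Hba-a2), and not in the beta genes; 20.5% of all windows held it. ACGTG and GATAA, held by 11.2% and 13.3% of all windows, had no match in the adult windows. ATAAA, held by 24.1%, matched only in Hbb-bt among them. It was searched as an exact string, so a window without a match can still hold a similar box. The Hba-a2 and Hbb-bs windows above hold catataag shortly before the start, which ATAAA does not match. The letters are a description of these windows, and binding was not measured.

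Other genes of the globin clusters were mostly at 0 or alike in both groups. Of 20 genes listed as neighbours or other globins, 18 were in the table and 6 were tested; 1 was called higher and 0 lower, against 5.25% higher and 2.02% lower over all genes tested. That gene was Hbq1b, a theta-like globin gene of the alpha cluster, which read 1.89 and 2.83 TPM in Hif1a-null libraries and was at a listed 0 in both Hif1a-intact libraries (limma, adjusted p = 0.0181). It passed the filter only through the Hif1a-null libraries, so its direction was fixed. Its near copy Hbq1a read 0.239 TPM and 0 in the Hif1a-null libraries and stood at 0 in the Hif1a-intact pair; the copies shared 258 words.

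The genes that flank the alpha cluster were not called. Nprl3, whose introns hold enhancers of the alpha-globin genes in the mouse, read 14.9 and 13.5 TPM in Hif1a-null libraries, against 14.5 and 14.8 TPM in the Hif1a-intact libraries (log2 fold change -0.04, limma adjusted p = 0.891). The groups overlapped for Nprl3, and its log2 standard error of 0.13 was small beside the change in Hba-a2. Mpg, a DNA glycosylase gene, averaged 2.74 TPM in the Hif1a-null and 2.49 TPM in the Hif1a-intact libraries (limma, adjusted p = 0.705). Snrnp25, a spliceosome subunit gene, averaged 12.6 TPM in the Hif1a-null and 9.89 TPM in Hif1a-intact libraries (limma, adjusted p = 0.522). Rhbdf1, a rhomboid family gene, read 0.0584 and 1.81 TPM in Hif1a-null libraries, against 1.52 and 2.95 TPM in the Hif1a-intact libraries (limma, adjusted p = 0.431). Polr3k, an RNA polymerase subunit gene of the same list, lies on chromosome 2 in this annotation and so does not flank the cluster; it averaged 15.9 TPM in the Hif1a-null and 15.2 TPM in the Hif1a-intact libraries (limma, adjusted p = 0.929).

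Beyond these, Il9r, the interleukin-9 receptor gene beyond the alpha cluster, stayed at 0.286 TPM or less in every library. Hbb-bh0 and Hbb-bh2 of the beta cluster, and the olfactory receptor genes Olfr66, Olfr67, Olfr68 and Olfr69 beside it, were listed at 0 in all 4. Among globins of other tissues, Mb (myoglobin) and Ngb (neuroglobin) were listed at 0 in all libraries, while Cygb (cytoglobin) reached 0.0560 TPM and Adgb (androglobin) 0.764 TPM at most, both in Hif1a-intact replicate 1. In the clusters, the called increases were therefore in the adult globins and Hbq1b.

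Regulators of the globin genes were called higher in 5 of 21 tested, and 0 were lower, beside 5.25% higher and 2.02% lower over all genes tested. Klf1 and Sox6 passed the filter only through the Hif1a-null libraries, so their direction was fixed. Klf1, which activates adult beta-globin through CACCC elements, read 20.4 and 20.1 TPM in Hif1a-null libraries, against 0.938 and 0.858 TPM in the Hif1a-intact libraries (log2 fold change 3.49, standard error 0.12, limma adjusted p = 0.00349). Gata1, the erythroid GATA factor, read 14.7 and 18.6 TPM in Hif1a-null libraries, against 1.73 and 0.689 TPM in the Hif1a-intact libraries (log2 fold change 3.03, limma adjusted p = 0.0147). Both factors separated the groups. Tal1, a partner of Gata1 on erythroid enhancers, had a mean of 12.6 ± 0.210 TPM in the Hif1a-null and 1.68 ± 0.454 TPM in the Hif1a-intact libraries (SD, n = 2 each; limma, adjusted p = 0.00851).

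Sox6, which with Bcl11a represses embryonic globin genes in the mouse, rose too, with means of 2.84 ± 0.0482 TPM in the Hif1a-null and 0.180 ± 0.0546 TPM in the Hif1a-intact libraries (SD, n = 2 each; limma, adjusted p = 0.00897). The fifth, Zfpm1, the Gata1 cofactor FOG-1, was picked with its values in view and rose by a log2 fold change of 0.88 (limma, adjusted p = 0.0435). Bcl11a itself read 23.5 and 21.3 TPM in Hif1a-null libraries, against 15.3 and 12.7 TPM in the Hif1a-intact libraries, which did not pass (limma, adjusted p = 0.105). Myb, another factor of globin control, read 186 and 188 TPM in Hif1a-null libraries, against 253 and 317 TPM in the Hif1a-intact libraries (limma, adjusted p = 0.136). Bcl11a and Myb were likewise named for their known roles after their values were seen. The median log2 fold change of the 21 regulators was 0.17, beside -0.06 over all genes tested, so the called members stood apart from most of the list.

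Haem supply genes were called higher in 6 of 20 tested and lower in 0, with a median log2 fold change of 0.61, beside the same 5.25% and 2.02% over all genes. Alas2 passed the filter only through the Hif1a-null libraries. Alas2, the erythroid enzyme that starts haem synthesis, read 20.5 and 18.9 TPM in Hif1a-null libraries, against 0.117 and 0.165 TPM in the Hif1a-intact libraries (limma, adjusted p = 0.00349). Cpox, a later enzyme of the pathway, read 64.5 and 68.8 TPM in Hif1a-null libraries, against 12.4 and 12.7 TPM in the Hif1a-intact libraries (limma, adjusted p = 0.00601). Blvrb, a flavin and biliverdin reductase abundant in red cells, averaged 167 and 14.5 TPM in the Hif1a-null and Hif1a-intact libraries (limma, adjusted p = 0.0153). The housekeeping enzyme Alas1, chosen after its values were seen, averaged 488 TPM in the Hif1a-null and 695 TPM in the Hif1a-intact libraries, which did not pass (limma, adjusted p = 0.183).

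Markers of erythroid cells moved with the globins. Over all genes tested, 5.25% were called higher and 2.02% lower, with a median log2 fold change of -0.06. Of 12 early erythroid progenitor markers 11 were tested, 10 were called higher and 0 lower, with a median log2 fold change of 3.21. Of 20 late erythroblast, reticulocyte and red cell markers 19 were tested, 14 were called higher and 0 lower, with a median of 3.36; 6 of these 19 and 3 of the 11 early markers passed the filter only through the Hif1a-null libraries, so their direction was fixed. The early markers summed to 909 and 987 TPM in the Hif1a-null libraries, against 119 and 79.8 TPM in the Hif1a-intact libraries. The late markers summed to 1197 and 1243 TPM in the Hif1a-null libraries, against 224 and 189 TPM in the Hif1a-intact libraries. The lists share Car2, and part of this pattern was known before they were drawn up.

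Rhd, Epor, Hemgn and Cldn13, given next, passed the filter only through the Hif1a-null libraries, so their direction was fixed. Among the early markers, Rhd, which encodes the Rh blood group antigen, averaged 16.1 TPM in the Hif1a-null and 0.498 TPM in the Hif1a-intact libraries (limma, adjusted p = 0.00792). Epor, the erythropoietin receptor gene, averaged 10.4 and 0.413 TPM, and Car2, a carbonic anhydrase gene, 583 and 37.4 TPM, in Hif1a-null and Hif1a-intact libraries (limma, adjusted p = 0.00798 and 0.00706). Tfrc, the transferrin receptor gene used by all dividing cells, averaged 82.3 TPM in the Hif1a-null and 41.6 TPM in the Hif1a-intact libraries, which did not pass (limma, adjusted p = 0.133). Called late markers included Hemgn, an erythroid nuclear protein gene, Rhag, of the Rh membrane complex, and Cldn13, an erythroid claudin gene of the mouse. They averaged 29.2, 28.8 and 23.8 TPM in the Hif1a-null libraries, against 0.844, 1.02 and 0.566 TPM in the Hif1a-intact libraries (limma, adjusted p = 0.00349 for each). The 5 late markers not called, named after their values were seen, were Bnip3l, Epb41, Bpgm, Icam4 and Cd36. Their log2 fold changes were -0.03, 0.31, 0.56, 0.54 and 0.52 in that order. Bnip3l and Epb41 averaged 104 and 46.7 TPM in the Hif1a-intact libraries, where the late list summed to a mean of 207 TPM.

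Globin TPM was also set against Klf1, chosen after its values were seen, and against the early list. Per TPM of Klf1, the 7 globins averaged 337 ± 19.0 in the Hif1a-null and 115 ± 21.8 in the Hif1a-intact libraries (SD, n = 2 each). Per TPM of the early list as a whole they read 7.27 and 7.14 in the Hif1a-null libraries, against 1.03 and 1.07 in the Hif1a-intact libraries. The ratios to Klf1 and to the early list were both higher in the Hif1a-null libraries, in all pairs of libraries. The Hif1a-intact level of the early list was mostly Tfrc and Car2, which non-erythroid cells also express. Their part in the ratio was not tested.

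**Figure D5:**
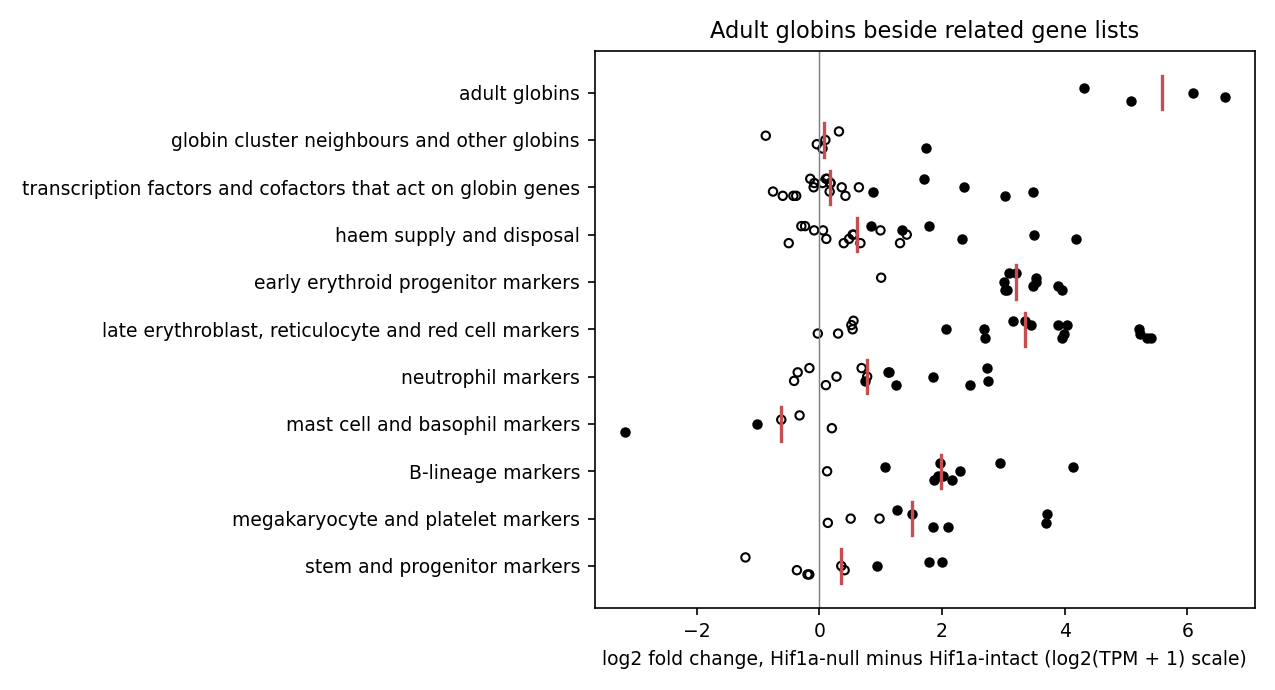
Log2 fold change (Hif1a-null minus Hif1a-intact) of each tested gene in the adult globins and in 10 related lists; filled points had a limma adjusted p under 0.05, open points did not, and red lines are list medians. The adult globins lie between 4.32 and 6.61, and the erythroid lists have medians of 3.21 and 3.36.

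Among the genes whose pattern over the 4 libraries was most like that of Hbb-bs were Trbj1-5 and Trbj1-1, which are joining segments of the T cell receptor beta locus, Slc4a1 and Chil1. Likeness was the Euclidean distance between centred log2(TPM + 1) values, and the distances were 0.646, 0.741, 0.825 and 1.05 in that order. Trbj1-5 read 93.1 and 61.2 TPM and Trbj1-1 94.0 and 54.1 TPM in the Hif1a-null libraries, and both were listed at 0 in the Hif1a-intact libraries. Slc4a1, the red cell anion exchanger gene, read 79.0 and 79.5 TPM in Hif1a-null libraries, against 1.83 and 0.264 TPM in the Hif1a-intact libraries. Chil1, a chitinase-like gene, read 174 and 188 TPM in Hif1a-null libraries, against 5.17 and 3.85 TPM in the Hif1a-intact libraries. For comparison, the distance of Hba-a2 from Hbb-bs was 0.829, that of Hba-a1 1.38 and that of Hbb-bt 1.88. With 4 libraries in 2 groups, likeness mostly reflects a difference of like size between the groups.

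Markers of other lineages moved as well, and their part in the globin result was not tested. The counts below stand beside 5.25% called higher and 2.02% called lower over all genes tested. Neutrophil markers summed to 109300 and 106330 TPM in the Hif1a-null libraries, against 65018 and 58067 TPM in the Hif1a-intact libraries, with 8 of 15 called higher and none at 0. The count was 5 with a limma trend and with quantile normalization, and Chil3 alone averaged 63369 TPM in the Hif1a-null and 28736 TPM in the Hif1a-intact libraries. Mmp8, Ly6g, Retnlg and Mmp9, genes of maturing neutrophils, averaged 29.8, 146, 260 and 206 TPM in the Hif1a-null libraries, against 3.59, 25.5, 39.3 and 56.5 TPM in the Hif1a-intact libraries. Mpo, Ctsg and Camp, granule protein genes of the same list, were not called and had means of 1938, 157 and 9124 TPM in Hif1a-null libraries, against 2593, 207 and 10305 TPM in Hif1a-intact ones. B-lineage markers summed to 240 and 236 TPM in the Hif1a-null libraries, against 21.8 and 18.2 TPM in the Hif1a-intact libraries, with 9 of 10 tested called higher and 7 of the 10 past the filter only through the Hif1a-null libraries; Rag1 and Igll1 stood at 0 in the Hif1a-intact pair, and Dntt, Blnk and Rag2 averaged 188, 17.0 and 5.09 TPM in the Hif1a-null libraries, against 9.82, 1.33 and 0.242 TPM in the Hif1a-intact libraries. Megakaryocyte and platelet markers summed to 171 and 190 TPM in the Hif1a-null libraries, against 38.8 and 39.2 TPM in the Hif1a-intact libraries, with 6 of 9 tested called higher; Gp6 was at 0 in both Hif1a-intact libraries, and Thbs1, Ppbp, Gp5 and Gp1ba averaged 47.4, 69.5, 7.45 and 3.77 TPM in the Hif1a-null libraries, against 2.69, 4.51, 1.33 and 0.671 TPM in the Hif1a-intact libraries. Of these, Gp1ba passed the filter only through the Hif1a-null libraries. The globin increase was thus measured in libraries where markers of several lineages differed together.

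Mast cell and basophil markers summed to 150.04 and 149.99 TPM in the Hif1a-null libraries, against 659 and 432 TPM in the Hif1a-intact libraries. Of 5 tested, 2 were called lower and 0 higher, beside 2.02% lower and 5.25% higher over all genes tested. Cpa3 and Gata2 were those called (means of 42.4 and 6.44 TPM in the Hif1a-null and 408 and 14.1 TPM in the Hif1a-intact libraries; limma, adjusted p = 0.0158 and 0.0267), and Tpsb2, Cma1 and Prss34 were at 0 in all 4 libraries. Hdc and Mcpt8, also of this list, averaged 84.8 and 3.09 TPM in the Hif1a-null and 107 and 5.17 TPM in the Hif1a-intact libraries, which did not pass. The fifth tested marker, Ms4a2, averaged 13.3 TPM in the Hif1a-null and 11.8 TPM in Hif1a-intact libraries and did not pass either (limma, adjusted p = 0.711). Stem and progenitor markers summed to 420 and 428 TPM in the Hif1a-null libraries, against 449 and 429 TPM in the Hif1a-intact libraries. Of 9 tested, 3 were called higher and 0 lower, beside the same shares over all genes tested. Of the 9, Slamf1 passed the filter only through the Hif1a-null libraries, so its direction was fixed. Mllt3, Hlf and Slamf1 were the called members (means of 53.1, 14.5 and 1.84 TPM in the Hif1a-null and 12.9, 3.53 and 0.472 TPM in Hif1a-intact libraries), and Procr, with 3.23 TPM in the Hif1a-null and 8.85 TPM in the Hif1a-intact libraries, did not pass (log2 fold change -1.21, limma adjusted p = 0.0509). Under quantile normalization, median-ratio rescaling or without Hif1a-intact replicate 2, 1 member of this list was called lower. Kit, the marker of the selection, averaged 111 TPM in the Hif1a-null and 127 TPM in the Hif1a-intact libraries (limma, adjusted p = 0.517). No unselected marrow was analysed here, so the enrichment itself was not checked.

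The engineered genes check the labels only in part. Hif1a read 106 ± 10.4 TPM in the libraries labelled Hif1a-null and 87.8 ± 17.8 TPM in the Hif1a-intact libraries (SD, n = 2 each; limma, adjusted p = 0.479). It was thus not lower, and a gene-level value counts exons outside a floxed part, so every direction above rests on the labels. Runx1 averaged 47.6 TPM in the Hif1a-null and 75.1 TPM in the Hif1a-intact libraries (limma, adjusted p = 0.0636), and Kmt2a 9.40 and 9.68 TPM in the Hif1a-null and Hif1a-intact libraries (limma, adjusted p = 0.895). The part of the Runx1 level in the globin result was not tested.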

How the data were processed

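RNA came from c-Kit-selected bone marrow cells. The authors quantified transcripts with kallisto against mm10, per the submitters' processing notes; version, transcript set and strand setting: not given in the sources used here. TPM values were deposited by Ensembl gene, and the column sums gave the unit. Depth is unknown, so no counting intervals are given and count models do not apply.

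Symbols were matched by Ensembl identifier for 27458 of 28987 genes, with coordinates from GENCODE vM21. Groups follow the genotype labels, 2 libraries each. Genes were tested with limma 3.58.1 under R 4.3.3 (two-sided, no trend, not robust), run on log2(TPM + 1) of genes reaching 1 TPM in 2 or more libraries, adjusted by Benjamini-Hochberg over 11909 genes with a threshold of 0.05. The fit was tested on simulated data. Sums and ratios were not tested.

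Named were the 7 members, Hif1a, Runx1, Kmt2a, up to 4 genes of smallest p per list, the measured neighbours of the clusters, and the 5 genes most like Hbb-bs (at least 5 TPM on average). Some genes that this rule names are not reported here. Members and lists were chosen with earlier results of these data known. Alternatives were other variance models, rescalings, filters and pseudocounts, abundant genes left out, copies summed and each library left out. Words of 31 bases were searched in all annotated transcripts, both strands. Python 3.11.15, Biopython 1.88 and matplotlib 3.10.9 were used.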

Additional observations from a re-analysis of the deposited data

How the results depend on the processing

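Among the tests, the 4 adult globins kept their direction in all alternatives run and were called higher in each that kept all 4 libraries. Their log2 fold changes, copies unsummed, ran from 4.72 to 5.45 for Hba-a1, 5.88 to 7.34 for Hba-a2, 5.83 to 6.36 for Hbb-bs and 4.16 to 4.49 for Hbb-bt. These extremes came from leaving out a Hif1a-intact library, except that 4.49 came from a pseudocount of 0.1 and the highest Hbb-bt value with a library left out was 4.47. The highest adjusted p was 0.0787 for Hba-a1, Hbb-bs and Hbb-bt and 0.0881 for Hba-a2, each without Hif1a-null replicate 2. With copies summed there were 2 globin features, and 2 were called higher.

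Leaving out 1 library, members called higher ran from 0 to 4, genes called higher from 0 to 731 and lower from 0 to 288, and list members called from 0 to 61; the lowest counts came without Hif1a-null replicate 2, where 0 genes passed in limma and 958 had an unadjusted p under 0.05. Without any filter 138 genes were called lower, against 241, and at a filter of 5 TPM 332 were called higher, against 625. The median of stem and progenitor markers, 0.36 with all libraries, ran from -0.0095 (without Hif1a-intact replicate 2) to 0.44 with 1 library left out. The cause of these shifts was not tested. With 1 library left out, the log2 difference ran from 5.93 to 6.56 for the alpha-like sum, from 5.77 to 6.26 for the beta-like sum and from 0.16 to 0.30 for their ratio. With all libraries kept, list counts also moved by over 1.5 times. Counts of the main test are given in brackets, and smaller shifts under other settings are left out. Early erythroid members called higher were 6 with no filter (10). Regulators were 3 with no filter or a filter of 5 TPM (5). B-lineage members were 2 at 5 TPM (9), and neutrophil members 5 with a trend or quantile normalization (8). Stem and progenitor members were 1 with no filter (3), and cluster neighbours 0 at 5 TPM (1). Mast cell members called lower were 1 with no filter (2). No paired analysis was possible because the labels give the groups no shared replicate numbers. TPM keeps no depth, so levels near 0 cannot be given a limit.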

Other observations

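Annotated globin pseudogenes gave low values. Hba-ps4, an alpha-globin pseudogene on chromosome 17, had 1.06 and 0.386 TPM in the Hif1a-null pair and stood at 0 in the Hif1a-intact pair. Of the Hba-a2 words, 17 were shared with Hba-ps4. Hbb-bh3, a pseudogene of the beta cluster, had 0.285 and 0.234 TPM in the Hif1a-null pair and stood at 0 in the Hif1a-intact pair. Neither was tested, and both were named after their values were seen.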
